A study of Mus musculus with 2 samples.

Results

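A small population of mouse embryonic cells with Hoxd13 and with Tbx3, Isl1 or Foxf2 was described across 2 single-cell RNA libraries. The cells are taken as mesenchyme, though no general mesenchymal gene such as Prrx1 was required. A cell was a member if it had at least 1000 unique molecular identifiers (UMIs, each standing for 1 captured RNA molecule) and up to 10% of them in mitochondrial genes, at least 1 UMI of Hoxd13, and at least 2 UMIs of Tbx3, Isl1 and Foxf2 together. Cells with 5 or more UMIs of the neuronal genes Tubb3, Stmn2 and Elavl3, with any UMI of the endothelial genes Pecam1 and Cdh5, or with 10 or more UMIs of the keratins Krt5, Krt14 and Krt15 were left out. The rule found 244 cells among 22086 cells within the quality limits and 27766 deposited barcodes.

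The cells came from dissociated trunks and limbs of mid-gestation embryos with heads and viscera removed by the study's methods, and had been sorted for tdTomato, a fluorescent reporter that Cre recombinase switches on. Both libraries carry Cre under the promoter of Myf5, a gene of early muscle precursors, together with the Rosa26 reporter tdT. They differ in Srsf2, which encodes an RNA splicing factor: 1 sample is titled SRSF2f/f/Myf5-Cre/tdT, with both copies flanked by loxP sites, and the other SRSF2f/w/Myf5-Cre/tdT, with 1 floxed and 1 wild-type copy. How many embryos were pooled is not given in the sources used here, and there is 1 library per genotype, so no difference between the libraries has a replicate check and none was tested. Cre marks every descendant of a cell that once used Myf5, so the reporter does not by itself name a cell type.

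The titles are opposed by other information on the same libraries. The quality-control figure of the study heads the metrics of these libraries with the opposite genotypes, and its pipeline names the library titled f/f as wild type. Among all cells within the limits, Srsf2 was at 218.6 counts per 1000000 UMIs (CPM) in the library labelled f/f and 152.7 in the library labelled f/w, so the titled deletion had the higher level. Cells with UMIs of at least 2 of Pax3, Pax7, Myf5, Myod1, Myog and Myh3 were 20.4% of the library labelled f/f (2482 of 12144 cells, 95% Clopper-Pearson interval 19.7% to 21.2%) and 1.30% of the library labelled f/w (129 of 9942, 1.08% to 1.54%). Endothelial cells were 4.37% of the library labelled f/f and 12.9% of the library labelled f/w. The study's text gives the larger share of muscle cells, and the smaller share of endothelial cells, to its control. The numbers of cells run the way the titles do, since the study's text counts fewer control than knockout cells after its filters. Here 9942 cells labelled f/w and 12144 labelled f/f were within the limits. The libraries are therefore called by their labels throughout, and every direction between them is a direction between labels.

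Hoxd13 is among the last genes of the Hox clusters and is used at the hind end of the body, in the hand and foot plates and in the genital tubercle. Tbx3 and Isl1 are transcription factors of limb and cloacal mesenchyme, and Foxf2 is a forkhead factor of mesenchyme next to gut and urogenital epithelium, where hedgehog signals from the epithelium are received. Wnt5a, a secreted ligand, drives outgrowth of the limb, tail and genital tubercle.

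In GRCm38, the build of the files, Hoxd13 lies at chr2:74668310-74671599 on the plus strand. Tbx3 lies at chr5:119670669-119684724, with Tbx5 further along the same strand at chr5:119832668-119885219. Isl1 lies at chr13:116298281-116309689 on the minus strand, Foxf2 at chr13:31625816-31631403 and its neighbour Foxq1 at chr13:31556134-31560976, both on the plus strand. Wnt5a lies at chr14:28504750-28527448. These are gene spans from GENCODE, exons and introns together.

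The library labelled f/f held 82 members, 0.675% of 12144 cells within the limits (95% exact Clopper-Pearson interval 0.537% to 0.837%). The library labelled f/w held 162 members, 1.63% of 9942 cells (1.39% to 1.90%). The share was 2.41-fold higher in the library labelled f/w, a log2 ratio of 1.27 (0.89 to 1.65). Intervals here and below cover counting error only. The share of a type in a sorted library also depends on which other cells passed the gate, and the share of muscle-gene cells given above differed between the libraries; its part in the member share was not tested. Over members and Hoxd13-negative mesenchyme alone, members were 1.43% in the library labelled f/f and 4.31% in the library labelled f/w. Over Hoxd13-positive cells under the same exclusions they were 59.4% and 72.0%, a log2 ratio of 0.28.

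The members were shallower than the rest of their libraries. Their median was 6194 UMIs in the library labelled f/f and 5438 in the library labelled f/w, against 10957 and 9863 for all cells within the limits. Summed over members, the libraries held 800001 and 1075955 UMIs, of 156093779 and 128116615 over all deposited barcodes. Of 27766 barcodes, 74 sequences occurred in both libraries, 1 of them in a member, and none in a member of each.

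A few deep cells weighed heavily on these sums. In the library labelled f/f, 13 of 82 members had over 15000 UMIs, the deepest 102095, and these 13 held 44.4% of all member UMIs. In the library labelled f/w, 7 of 162 members were above that depth and held 14.9%. One member labelled f/f, with 17383 UMIs, held 6882 haemoglobin UMIs, and another, with 32104 UMIs, held 438 of the 464 Ibsp UMIs of that library. Doublets were not called and no cell was removed. Some counts and levels are given with and without them. Foxq1 was at 95.0 CPM in members labelled f/f with all cells and at 143.9 without the deep ones, and Ibsp at 580.0 and 45.0.

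The values that chose the cells are given once, as a description. Hoxd13 was at 173.8 CPM in members labelled f/f and 229.6 in members labelled f/w, and 49 of 82 and 100 of 162 members had a single Hoxd13 UMI. A UMI of Hoxd13 was also found in 0.753% and 1.33% of endothelial cells, whose median depths were 12915 and 16175 UMIs. Without the deep cells Hoxd13 was at 258.5 and 254.5 CPM. Isl1 was detected in 95.1% and 90.1% of members, Tbx3 in 90.2% and 79.0%, and Foxf2 in 41.5% and 36.4%. Tbx3 and Isl1 were found together in 71 of 82 and 114 of 162 members. Foxf2 alone brought in 1 member labelled f/f and 2 labelled f/w, the cells with neither Tbx3 nor Isl1.

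Just inside the threshold, with a sum of 2, were 11 members labelled f/f and 24 labelled f/w. Just outside it, 19 and 26 Hoxd13-positive cells had a sum of 1, and 37 and 37 had a sum of 0. Wnt5a, which the rule did not use, was at 180.8 and 130.4 CPM just inside and at 65.7 and 99.6 in cells with a sum of 1. A further 9 and 26 cells had the Hoxd13 and Tbx3, Isl1 and Foxf2 counts but were removed by the exclusions.

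Members were set against Hoxd13-negative mesenchyme of the same library, the cells under the same limits and exclusions with no Hoxd13 UMI and at least 2 UMIs of Pdgfra, Dcn and Prrx1 together (5647 cells labelled f/f and 3593 labelled f/w). UMIs were summed per population and a gene was called where it was 2-fold or more higher, or lower, in both libraries. Of 7378 genes with at least 20 expected UMIs in each library, 214 were called higher (2.9%) and 87 lower (1.18%). A gene could reach that minimum through its level in members or in the reference. Genes low in the reference were therefore counted only where high in members, and could not be called lower. Without the deep cells 234 were higher and 180 lower of 5652. Here and below only deep members were left out, and the reference kept its deep cells. The cells were picked from the same counts, so these values describe the members and carry no test. The median gene was 0.12 higher on the log2 scale in the library labelled f/f and 0.10 in the library labelled f/w.

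**Figure D1:**
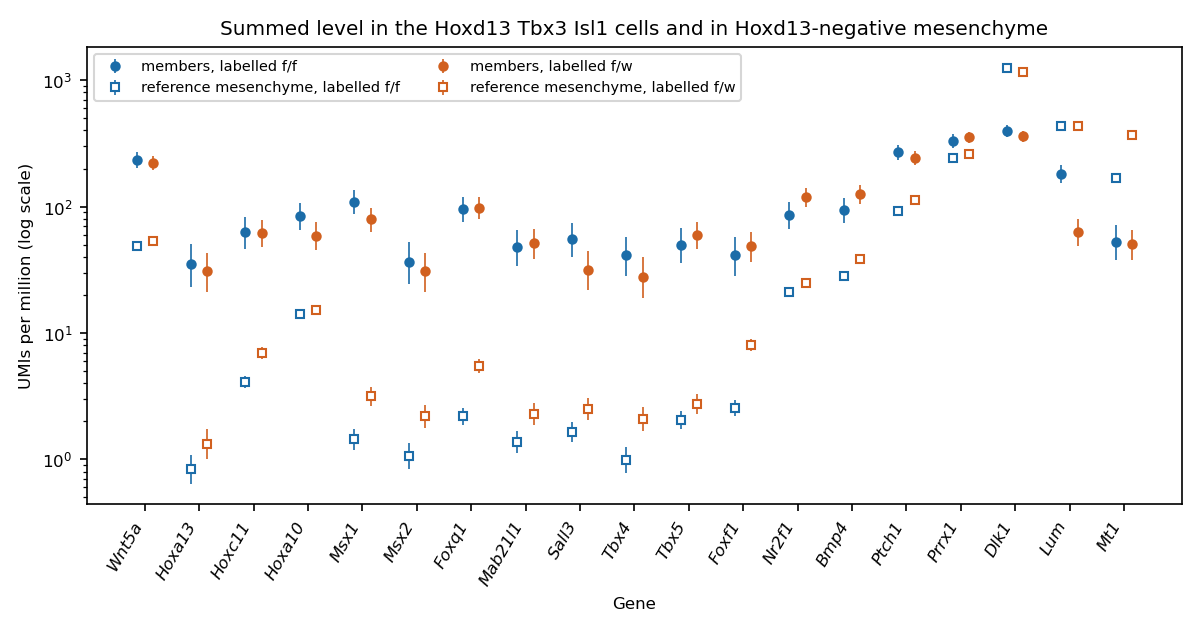
Summed level of selected genes in CPM (log axis) in the Hoxd13 Tbx3 Isl1 cells (filled circles) and in Hoxd13-negative mesenchyme (open squares) of the library labelled f/f (blue) and f/w (orange), with 95% exact Poisson intervals that cover counting error only. From Wnt5a to Ptch1 the members lie above the mesenchyme in both libraries, and for Dlk1, Lum and Mt1 below it.

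Wnt5a had 186 UMIs in members labelled f/f and 238 in members labelled f/w, levels of 232.5 and 221.2 CPM against 49.0 and 53.1 in the reference. That was 4.74-fold and 4.17-fold higher (log2 2.25, 2.03 to 2.46, and 2.06, 1.86 to 2.25). Of the 5 genes that mark the population, Wnt5a is the only one the rule did not use. It was named as a marker with these same data known, so its level is a description and no check on the rule.

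The 5′ end of the Hox clusters stood out. Hoxa13, the partner of Hoxd13 in the distal limb and the genital tubercle, was at 35.0 and 30.7 CPM, 41.6-fold and 23.1-fold above the reference. Hoxc11 was at 62.5 and 61.3, 15.2-fold and 8.83-fold higher. Hoxd11 was at 52.5 and 73.4, 9.72-fold and 7.36-fold higher. These 3 genes, with Hoxa10 and Hoxa9, were the 5 Hox genes called higher of 12 with enough UMIs, and none was called lower. All 5 had enough UMIs only through their level in members. They could not have been called lower, so the minimum partly set this count.

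Genes nearer the 3′ ends did not share this, nor did the last genes of the Hoxc cluster, with no more than 3 UMIs of Hoxc12 and 1 of Hoxc13 in members of either library. Hoxc8, used in the trunk, had log2 ratios of 0.08 and -0.26, and Hoxa7 of -1.52 and -0.57. Hoxb13, the paralogue of Hoxd13 in the Hoxb cluster, had 0 UMIs among members, as did Hoxb1 and Hoxd3. With 0 UMIs, a level of up to 3.75 CPM in members labelled f/f and 2.79 in members labelled f/w, the floor of 3 counts, is allowed.

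**Figure D2:**
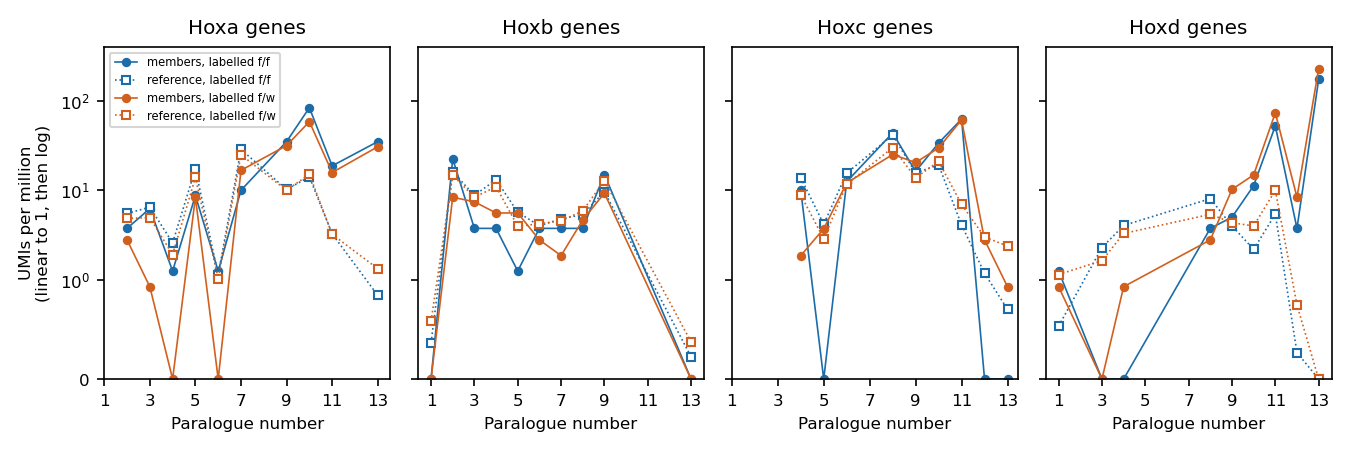
Level of the Hox genes in CPM (linear to 1, then log) by paralogue number, 1 panel per cluster, in the Hoxd13 Tbx3 Isl1 cells (filled circles) and Hoxd13-negative mesenchyme (open squares) of the library labelled f/f (blue) and f/w (orange). In both libraries members lie above the mesenchyme from Hoxa9 and from Hoxd9 upward and from Hoxc9 to Hoxc11, though by under 2-fold in 1 or both libraries at Hoxd9, Hoxc9 and Hoxc10, but at no Hoxb gene and not at Hoxc12 or Hoxc13. Hoxd13 is set by the rule.

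Several single genes with high ratios are given as examples, not as a counted group. Msx1, a homeobox factor of growing mesenchyme, had 87 and 85 UMIs, 108.8 and 79.0 CPM, and was 75.2-fold and 24.9-fold above the reference. Msx2, its relative, was 34-fold and 14-fold higher. Foxq1, the forkhead gene beside Foxf2, was 43.4-fold and 17.9-fold higher, at 95.0 and 97.6 CPM. Mab21l1 was 34.5-fold and 22.4-fold higher. In each of these genes the ratio was larger in the library labelled f/f, where the reference level was the lower of the 2.

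Tbx4 and Tbx5, the T-box genes known as hindlimb and forelimb factors, were both present. Tbx5 was at 50 and 59.5 CPM (24.4-fold and 21.6-fold higher) and Tbx4 at 41.3 and 27.9 (41.4-fold and 13.3-fold). They were not split cleanly between cells: among members labelled f/f, 13 had UMIs of both, 10 of Tbx4 alone and 11 of Tbx5 alone, and among members labelled f/w the counts were 7, 19 and 33. The related gene Tbx2 was at 51.2 and 34.4 CPM, with log2 ratios of 2.56 and 2.34.

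In shares of cells, Msx1 was detected in 31.7% and 17.3% of members, against 1.1% and 2.4% of the reference and 4.1% and 6.2% of endothelial cells, whose median depths were 12915 and 16175 UMIs. After thinning each cell to 3000 UMIs the members were at 23.2% (82 cells) and 14.3% (154 of 162 cells deep enough), and the endothelial cells, of which up to 600 a library were thinned, at 1.3% and 0.8%. Tbx5 was at 18.3% and 17.5% of thinned members and in none of the thinned endothelial cells of either library. Wnt5a was at 53.7% and 38.3% of thinned members and 14.7% and 14.3% of the thinned reference.

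A list of genes of the genital tubercle and the mesenchyme around the cloaca had 24 genes, 19 of them with enough UMIs. Of these, 14 were called higher and none lower, with median log2 ratios of 2.25 in both libraries. Without the deep cells the medians were 2.86 and 2.33. All 14 but Bmp4, Ptch1 and Wnt5a had enough UMIs only through members and could not have been called lower. A list of autopod genes (the hand and foot plates) had 20 genes, 11 of them with enough UMIs. Of these, 8 were called higher and none lower. Median log2 ratios were 3.28 and 2.18, and 3.76 and 3.02 without the deep cells. Of the 8, Hoxa13, Hoxd11, Msx1, Msx2, Sall3 and Hand2 had enough UMIs only through members and could not have been called lower. The lists share 6 genes, and Hoxa13, Hoxd11, Msx1, Msx2 and Wnt5a account for 5 of the calls in each. The genital tubercle list alone contributed 9 of 14 genes tested, among them Bmp4, Eya1, Foxf1, Nr2f1, Ptch1, Tbx2, Tbx4 and Tbx5. The autopod list alone contributed Hand2, Prrx2 and Sall3, 3 of 6 tested. A list of 14 genes of proximal limb and trunk mesenchyme had 10 with enough UMIs. Of these, Meis1, Meis2 and Hoxa9 were called higher and none lower, with median log2 ratios of 0.41 and 0.33. Hoxa9 had enough UMIs only through members. Without the deep cells 3 of 7 were called higher, with medians of 1.77 and 0.86.

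Several genes that mark neighbouring structures had no UMI in any member. Lhx2, a factor of the distal limb bud, had 0 UMIs, and so did Cdx1, Cdx2 and T, used in the tail bud. Shh, the hedgehog ligand of the urethral and limb signalling centres, had 0 UMIs. A count of 0 allows up to 3.75 and 2.79 CPM in these sums, and the reference itself held Lhx2 at 0.41 and 0.40 CPM and the other 4 genes below that, so a lower level was not detectable at this depth. The cells are called by their rule genes, since the tissue is labelled as trunks and limbs and no source used here says whether the genital tubercle or the tail was in the sample.

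Nr2f1 and Nr2f2, orphan nuclear receptors, were at 85 and 119 CPM and at 72.5 and 67.8 CPM. Without the deep cells Nr2f1 was at 123.7 and 124.5 CPM. Nr2f1 was 4.07-fold and 4.76-fold above the reference and Nr2f2 2.93-fold and 2.29-fold. They were among 3 genes called higher of 7 tested in a list of 15 steroid hormone and sex difference genes, and none was called lower. Xist, which is made from the inactive X of females, had 0 UMIs in members of both libraries, and Ddx3y of the Y chromosome was at 136.3 and 169.2 CPM.

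Genes that receive signals were described by role. Ptch1, the hedgehog receptor and itself a target of the pathway, was at 270.0 and 242.6 CPM, 2.94-fold and 2.17-fold above the reference. Foxf1, a mesenchymal target of hedgehog signals, was 16.1-fold and 5.99-fold higher, and without the deep cells its log2 ratios were 4.72 and 2.82. They were the 2 called higher of 11 hedgehog genes tested. The target Gli1 had log2 ratios of 1.23 and 0.85 and was past 2-fold in the library labelled f/f alone.

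Of the BMP pathway, 9 of 18 genes tested were called higher and none lower. The ligand Bmp4 was 3.31-fold and 3.23-fold higher, with log2 ratios of 2.32 and 1.74 once the deep cells were left out. Its secreted antagonist Nog was 3.09-fold and 5.46-fold higher. The intracellular targets Id1, Id2 and Id4 were called, with Id1 at 978.7 and 884.8 CPM and 2.56-fold and 2.44-fold higher. The inhibitors Smad7 and Bambi were called too, at log2 ratios of 1.15 and 1.04 and of 1.29 and 1.46. Id3, the most abundant gene of the list, stayed under 2-fold, with log2 ratios of 0.70 and 0.80.

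Of the Wnt pathway, 7 of 27 genes tested were called higher and none lower. They were the ligand Wnt5a, the receptors Fzd7 and Fzd10, the planar polarity gene Vangl2, and the inhibitors Nkd2, Dkk1 and Frzb. All but Wnt5a had enough UMIs only through members, so they could not have been called lower. Without the deep cells 4 of 21 were called higher. Fzd10 was 15.7-fold and 10.4-fold higher, and Dkk1 7.87-fold and 7.39-fold, at 36.3 and 30.7 CPM. The common target Axin2 had log2 ratios of 1.78 and 0.41. None of 10 FGF pathway genes tested was called, with medians of 0.16 and 0.05. Over all genes tested 2.9% were called higher and 1.18% lower, so no call in a list this short is near that share. Of 8 ephrin guidance genes tested, the receptors Epha4 and Epha7 were called higher.

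By the ranking among genes with at least 100 expected UMIs in each library, the highest ratios were those of Mllt3 (log2 2.64 and 2.31), a chromatin factor, Sox11 (2.12 and 2.38) and Wnt5a. Sox11, a factor of immature cells, was detected in 95.1% and 92.6% of members. The RNA-binding genes Mex3a and Mex3b, the guidance receptor gene Robo2, the repressor genes Tle4 and Zfp503, Igfbp2 and Dact1 were in the same 15. All 15 were called higher.

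The lowest ratios by the same ranking were those of Mt1 and Dlk1. Dlk1, a membrane protein of embryonic mesenchyme, was at 398.8 and 359.7 CPM against 1245 and 1170 in the reference (log2 -1.64 and -1.70). Lum, a collagen-binding proteoglycan, was at 182.5 and 63.2 against 433.0 and 431.3, and 1 cell held 43.2% of its UMIs labelled f/f; without the deep cells it was at 110.2 and 36.0. The metallothionein gene Mt1 was at 52.5 and 50.2 against 168.9 and 367.6. Comp, Aspn, Timp1, Hapln1, Penk, Cd44, Lgals3 and Crip1 were in the same 15, and so was Dcn, which the reference was itself chosen on.

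**Figure D3:**
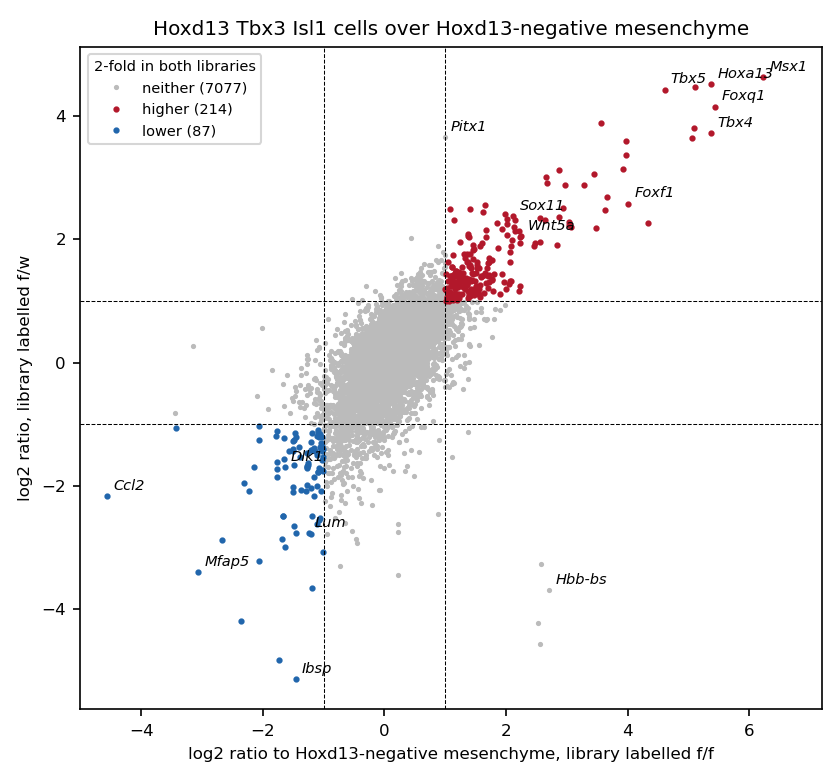
Log2 ratio of the Hoxd13 Tbx3 Isl1 cells over Hoxd13-negative mesenchyme for 7378 genes, library labelled f/f (x axis) against library labelled f/w (y axis), with dashed lines at 2-fold. The 214 genes higher in both are red and the 87 lower in both blue; the haemoglobin gene Hbb-bs lies far off the diagonal, and 98.8% of its UMIs in members labelled f/f came from 1 cell.

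The cartilage and fibroblast lists depended on the deep cells. Of 11 chondrocyte genes tested, 1 (Chad) was called lower with all members, and of 15 fibroblast genes 3 were called lower and 1 (Osr2) higher. Col2a1, the main cartilage collagen, was at 1313 and 742.6 CPM against 2231 and 2688, and 1 cell held 54.9% of its UMIs in members labelled f/f. Among the members with at most 15000 UMIs and under 100 haemoglobin UMIs, 7 of 9 chondrocyte and 6 of 14 fibroblast genes were called lower. Col2a1 then had log2 ratios of -3.25 and -2.39. The reference was not limited in the same way. Wnt5a, Hoxa13, Msx1 and Tbx5 were called higher with and without the deep cells.

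Markers of other cells were summed over each list and set beside the reference. Pecam1 and Cdh5 were at 0 by the rule, and the 6 endothelial genes, led by Emcn and Kdr, summed to 7.50 and 13.9 CPM against 7.78 and 13.2. The 6 immune genes summed to 2.50 and 14.9 against 27.6 and 84.7, with Ptprc and C1qb at 0. The 9 epithelial genes, led by Epcam, summed to 35.0 and 43.7 against 27.7 and 54.2, with Trp63 and Shh at 0. The endothelial sums were thus close to the reference, the immune sums below it, and the epithelial sum above it in the library labelled f/f alone. Without the deep cells the epithelial genes summed to 24.7 and 42.6 CPM, below the reference in both libraries. The 9 skeletal muscle genes summed to 72.5 and 25.1 CPM against 160.5 and 33.3, and were found in 28 of 82 and 10 of 162 members; without the deep cells they summed to 63.0 and 12.0. One member labelled f/w held all 6 Pax7 and all 8 Msc UMIs of that library's members. The 6 neuronal genes, of which the rule limits 3, summed to 66.2 and 102.2 against 54.9 and 66.0, above the reference in both libraries. The 6 Schwann genes summed to 56.2 and 12.1 against 25.9 and 23.0, with UMIs in 3 members labelled f/f and 9 labelled f/w, and to 2.25 and 7.65 without the deep cells. The 7 erythroid genes, led by Hbb-bs, summed to 8747 and 141.3 against 1442 and 2009, and to 150.6 and 137.6 without the deep cells. The part of these other cell types in the results was not tested.

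Of the 3 genes that chose the reference mesenchyme, Dcn was called lower and the other two were not called. Dcn was at 238.8 and 146.8 CPM against 680.1 and 632.6. Prrx1 was at 330.0 and 354.1 CPM in members (log2 0.44 and 0.43) and was detected in 80.5% and 79.0% of them, and Pdgfra in 63.4% and 50.6%, against 57.2% and 59.4% of reference cells. After thinning, Pdgfra was in 40.2% and 26.0% of members and 25.7% and 30.7% of reference cells. The 9 smooth muscle genes had 5 with enough UMIs, of which Synpo2 alone was called higher. None of 13 stress genes and none of 10 SR protein genes was called. Both counts are near the share over all genes tested, 2.9% higher and 1.18% lower.

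Hoxd13-positive cells with fewer than 2 UMIs of Tbx3, Isl1 and Foxf2 (56 labelled f/f and 63 labelled f/w) had part of the same genes. Hoxd11 differed little, with log2 ratios of members over these cells of 0.48 (-0.27 to 1.26) and 0.40 (-0.24 to 1.09), as did Foxf1, with 0.46 (-0.39 to 1.33) and 0.65 (-0.20 to 1.58). Msx1 was higher in members by 4.59 (3.0 to 6.9) and 1.68 (0.80 to 2.69), and Foxq1 by 4.98 (3.08 to 8.05) and 1.76 (0.95 to 2.68). Of the 214 genes called higher against the reference, 71 were called higher against these cells as well, with 213 still tested.

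The members were not uniform. Clustering on 1500 variable genes without those of the rule gave 5 groups of 73, 52, 51, 38 and 30 cells. In that order they held 27, 7, 15, 20 and 13 members labelled f/f and 46, 45, 36, 18 and 17 labelled f/w. These numbers are not compared, since genes that lead the groups also differ between the libraries. The groups were made from the same counts, so their leading genes describe them and carry no test. None was given a cell type name.

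Group 1 (73 cells, median 5317 UMIs) led with Txnip, Mme, Foxq1, Hoxc11 and Epha4, with Msx1 at 190 CPM and Wnt5a at 401. Group 2 (52 cells) led with C2cd4b, En1 and Sox9, with Sox9, the cartilage-forming factor, at 1298 CPM in 92.3% of its cells and Msx1 at 13.0. Group 3 (51 cells) led with Acta2, Igf1, Igfbp5, Rspo3 and Nr2f1 and had no Msx1 UMI. Nr2f1 was at 312 and Foxf1 at 144 CPM there, against 15.4 and 48.8 in group 1.

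Group 3 also had the highest smooth muscle level. The list summed to 902 CPM there and to between 58.4 and 296 in the other groups. Acta2 was found in 23.5% of its cells, and in 31.6% of the cells of group 4 at a lower level (523 against 122 CPM). Group 4 (38 cells) had Mki67 in 92.1% of its cells, at 424 CPM, and had Msx1 at 212; its leading haemoglobin genes came from 1 cell, which held at least 98% of each. Msx1 had 74 UMIs in group 1 and 78 in group 4, against 0 to 16 in the other groups. Group 5 (30 cells) was deep, with a median of 13983 UMIs, and led with Tnmd, Spp1, Ibsp and Acan, where 1 cell held 97.6% of Ibsp and 91.7% of Spp1. The chondrocyte list summed to 6826 CPM in group 5 and to between 881 and 2261 elsewhere. The cell cycle list summed to 4171 CPM in group 4 and 4081 in group 5, and to between 1518 and 1877 elsewhere. In group 5 Cdkn1c, a cell cycle inhibitor on that list, made up 2769 CPM, and Mki67 was found in 20.0% of cells.

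**Figure D4:**
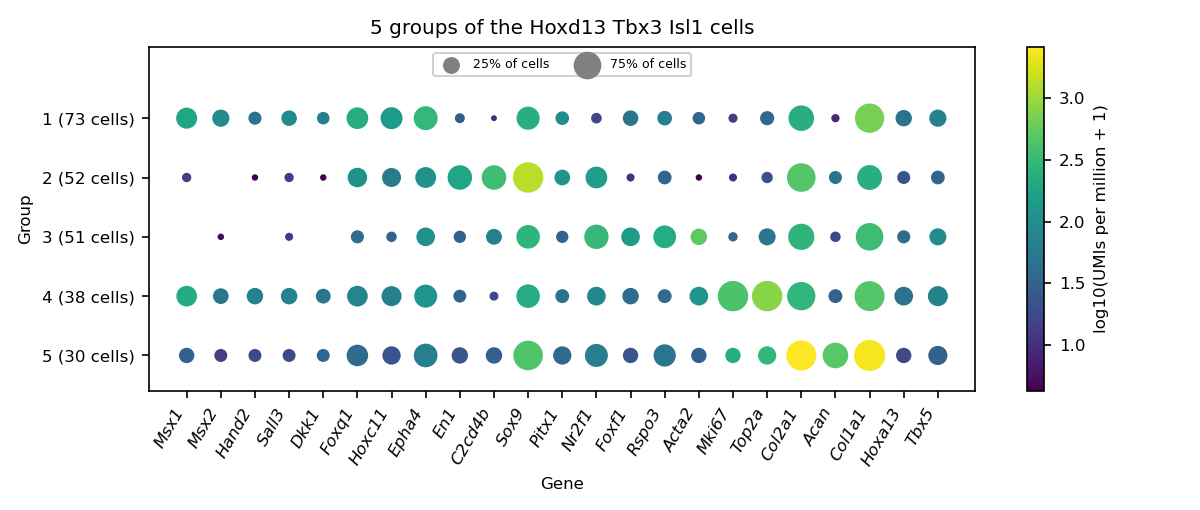
Levels of selected genes in the 5 groups of Hoxd13 Tbx3 Isl1 cells, coloured by log10(CPM + 1) and sized by the share of cells with a UMI. Msx1 is bright in groups 1 and 4 and missing in group 3, Sox9, En1 and C2cd4b mark group 2, Acta2 and Nr2f1 group 3, Mki67 and Top2a group 4, and Acan group 5.

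Between the libraries, the members were compared gene by gene as the library labelled f/w over the library labelled f/f. Of 3074 genes with at least 100 UMIs, 20 were 2-fold or more higher (0.651%) and 46 lower (1.5%). Without the deep cells 21 were higher and 15 lower of 2290 genes, and of the genes still tested 9 of 17 higher and 7 of 17 lower ones were called again. Over the same genes, Hoxd13-negative mesenchyme had 5 higher (0.163%) and 0 lower; it has many more cells, so its ratios scatter less. The median ratio was close to 0 in both.

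Srsf2 had 248 UMIs in 82 members labelled f/f and 157 in 162 labelled f/w, 310.0 and 145.9 CPM. The log2 ratio was -1.09 (-1.38 to -0.79), against -0.49 (-0.54 to -0.45) in the reference and -0.52 (-0.54 to -0.49) over all cells, and it was -0.85 (-1.21 to -0.48) without the deep cells. It goes against the titles in every population measured here.

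Pitx1, a hindlimb factor, was the most different of the genes higher in the library labelled f/w. It had 14 UMIs in 6 members labelled f/f and 105 UMIs in 37 members labelled f/w, 17.5 and 97.6 CPM, a log2 ratio of 2.48 (1.67 to 3.4). In the reference its ratio was -0.20. One cell held 42.9% of the UMIs labelled f/f and 13.3% of those labelled f/w, and without the deep cells the ratio was 4.02 (2.43 to 6.32).

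Cwc22, a splicing factor gene, had 19 and 127 UMIs in 12 and 82 members (log2 2.31, 1.61 to 3.09), and C2cd4b had 27 and 126 (1.79, 1.19 to 2.45). For both the reference moved the same way, by 1.73 and 1.53. Nefl, Baiap2, Pcdh17, Frat2 and Sat1 completed the 8 highest, with log2 ratios of 1.29 to 1.62 in members and 0.63 to 0.82 in the reference. Without the deep cells Frat2 was at 0.99, under 2-fold, and Nefl had too few UMIs for the comparison. C2cd4b, Nefl and Sat1 are leading genes of group 2, with 7 cells labelled f/f and 45 labelled f/w, and the part of the groups in these ratios was not tested.

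Most of the 8 lowest ratios came from single cells. The 4 haemoglobin genes had log2 ratios of -5.39 to -6.59, and 1 cell held at least 97.8% of their UMIs labelled f/f. Ibsp and Spp1, bone matrix genes, had ratios of -4.43 and -3.20, with 94.4% and 96.3% from 1 cell. Pclaf, a replication gene, had 187 and 58 UMIs in 33 and 23 members (-2.12, -2.57 to -1.68), and Akap12 183 and 63 in 34 and 30 members (-1.97, -2.40 to -1.55). Without the deep cells these were -1.53 (-2.05 to -1.01) and -1.84 (-2.37 to -1.31).

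Of 8 cell cycle genes with enough UMIs, 4 were 2-fold or more lower in members labelled f/w and none higher, and in the reference none of the 3074 genes was 2-fold lower. Top2a had a log2 ratio of -1.92 in members and -0.80 in the reference, and Mki67 of -1.89 and -0.84. One cell held 41.5% of the Mki67 UMIs labelled f/f, and without the deep cells Top2a was at -1.27 and Mki67 at -0.89. Top2a was then 2-fold or more lower, as 1 of 6 genes of the list with enough UMIs. Group 4, where Mki67 was highest, held 20 members labelled f/f and 18 labelled f/w, and its part in these ratios was not tested. Msx1 had a ratio of -0.46 (-0.91 to -0.01), and -0.63 (-1.12 to -0.14) without the deep cells. Wnt5a was at -0.07 (-0.35 to 0.21), and at -0.34 (-0.66 to -0.02) without them. In the reference Msx1 went the other way, by 1.13.

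**Figure D5:**
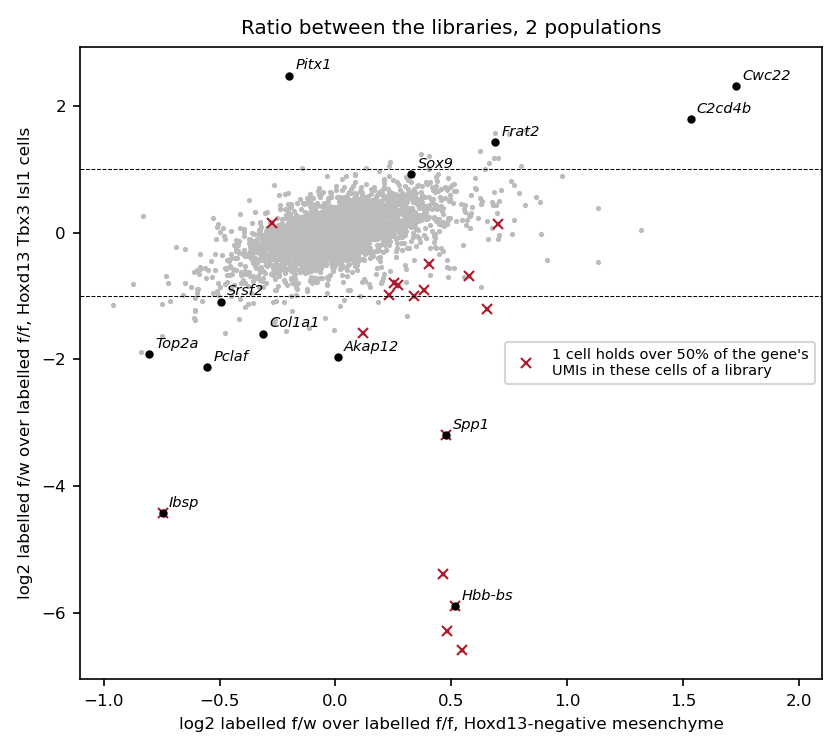
Log2 ratio of the library labelled f/w over the library labelled f/f for 3074 genes in Hoxd13-negative mesenchyme (x axis) and in the Hoxd13 Tbx3 Isl1 cells (y axis), with dashed lines at 2-fold. Pitx1 is high in members at -0.20 in the mesenchyme, and crosses mark genes for which 1 cell held over 50% of the UMIs in members of a library.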

How the data were processed

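Raw UMI counts of 32285 genes in 27766 barcodes, as the authors deposited them, were used. Per the file headers, the authors counted them with Cell Ranger 5.0.0, while the submitters' processing notes list Cell Ranger 3.1.0 and Seurat 3.1.1; reads were mapped to mm10 without introns and both libraries were aggregated after down-sampling. The deposited summaries, used for the other quantities, give 571426356 and 575393483 reads and a sequencing saturation of 39.5 and 45.9 percent for the libraries labelled f/f and f/w. Barcode suffixes were matched to libraries by their numbers of cells, 15268 and 12498, and 0 suffixes had no sample.

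UMIs were summed per population and library and given as CPM. Poisson, Clopper-Pearson and conditional binomial intervals are at 95 percent, and the ratio of shares has a normal-approximation interval on the log scale. A 0 was replaced by a floor of 3 counts in a ratio. No test was run, since there is 1 library per genotype. Intervals were tried only on simulated Poisson counts, the model that they assume. Differences between cells of a population were not simulated, so their effect on the intervals is not known. Named genes are those of 31 lists and Srsf2, the 15 highest and 15 lowest ratios to the reference and the 8 highest and 8 lowest between libraries with at least 100 UMIs, and the 8 leading genes per group with at least 50 UMIs; 20 higher and 10 lower genes ranked with at least 20 expected UMIs were added after their values were seen. The members and lists were chosen with earlier results of these data known. Groups came from Leiden clustering (resolution 0.6, 20 components, 15 neighbours, 1500 variable genes, counts scaled to 10000 per cell). Doublets were not called. Some members of the lists are not reported here.

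Clustering used leidenalg 0.10.2 on python-igraph 0.11.9 graphs, intervals SciPy 1.17.1, figures matplotlib 3.10.9, and tables pandas 2.3.3 under Python 3.11.15. The GENCODE annotation of GRCm38 held 32235 of the identifiers. Alternatives covered the limits, the thresholds of the rule, the reference, the denominator and the deep cells.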

Additional observations from a re-analysis of the deposited data

Results flagged for a closer look

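The 4 haemoglobin genes lay on opposite sides of Hoxd13-negative mesenchyme in the 2 libraries, which drew attention to them; the difference was not tested. In members labelled f/f and f/w the log2 ratios were 2.53 and -4.24 for Hba-a1, 2.57 and -3.28 for Hba-a2, 2.71 and -3.70 for Hbb-bs, and 2.56 and -4.58 for Hbb-bt. One member labelled f/f held 6882 of the 6986 haemoglobin UMIs of its library.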

How the results depend on the processing

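There was 1 library per genotype, and 82 and 162 members limit what small differences can be seen. No paired analysis was possible because each genotype has 1 library and the result comes from no test. The share of members in the library labelled f/f and f/w was 0.272% and 0.624% with Hoxd13 of 2 or more, 0.341% and 0.780% after thinning to 5000 UMIs, 1.43% and 4.31% over mesenchyme plus members, and 59.4% and 72.0% over Hoxd13-positive cells; it was 1.39% in the library labelled f/w with a sum of 3 or more and 2.18% without the deep cells. The log2 ratio of the shares fell to 0.28 over Hoxd13-positive cells. Genes higher and lower than the reference numbered 116 and 52 with Hoxd13 of 2 or more, 39 and 26 with a minimum of 100 UMIs, and 890 and 238 with no minimum; 137 were higher against Hoxd13-positive cells outside the rule, and 214 were lower by the mean over cells and 180 without the deep cells. Without the deep cells, 159 of the 166 higher genes still tested were called again and 54 of 59 lower genes. Of the lower genes still tested, 39 of 81 were called again against all other cells, 21 of 66 against Hoxd13-positive cells outside the rule, and 28 of 51 with Hoxd13 of 2 or more. With the deep cells left out, genes called higher numbered 14 of 17 on the genital list, 8 of 9 on the autopod list, 9 of 15 on the BMP list and 4 of 21 on the Wnt list, and 3 of 3 osteoblast genes were lower, against 1 higher and 1 lower of 4 with all members. Genes lower in the library labelled f/w numbered 28 by the mean over cells, 29 at up to 5% mitochondrial UMIs and under 2 SD, and 15 without the deep cells, where 7 of 17 still tested were called again. Against Hoxd13-positive cells outside the rule, Ibsp (0.39), Cd44 (0.0071), Aspn (0.68) and Crip1 (0.054) reversed. Between libraries, Hbb-bt (0.25), Hbb-bs (0.76) and Spp1 (0.84) reversed with Hoxd13 of 2 or more, and Hbb-bs (0.29), Hba-a2 (0.084) and Spp1 (0.64) without the deep cells. The cause of these moves was not tested. The settings for deep cells, for the UMI minimum and for Hoxd13-positive cells as denominator were chosen after seeing the data. Of the single-gene values under an alternative, 297 stayed within the interval, 95 moved and 10 reversed.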
